A study of Mus musculus with 8 samples.

Results

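Creatine synthesis and inositol catabolism were followed here through 6 genes, Gatm, Gamt, Slc6a8, Ckb, Miox and Akr1a1, out of 21874 gene rows measured in mouse renal proximal tubules after cisplatin. The 6 were selected on their measured FPKM over the 4 times, so their own time courses are given as a description, with no p-value. FPKM is the number of fragments per kilobase of gene and per mapped depth, so levels of different genes can be set side by side.

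The study took proximal tubular cells from the renal cortex of male C57BL/6 mice given an intraperitoneal injection of 30 mg/kg cisplatin, a platinum drug that damages this part of the nephron. The groups were 0, 24, 48 and 72 h, with 2 libraries each, named a and b. The labels give all 4 groups the same treatment text and call the earliest 0 h, so whether those mice were injected is not stated, and 0 h is the group every later time was set against. The duplicates are called biological, but separate animals are not stated, so p-values measure only the spread between these libraries. Age is not given. Total RNA was depleted of ribosomal RNA, and the library kit is named as one for small RNA.

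Creatine is made in 2 enzymatic steps that are split between organs. In the kidney, glycine amidinotransferase (Gatm) moves an amidino group from arginine to glycine and so makes guanidinoacetate, which the proximal tubule releases to the blood. Guanidinoacetate methyltransferase (Gamt), best known from the liver, then methylates guanidinoacetate to creatine with S-adenosylmethionine as the donor. Slc6a8 is the sodium- and chloride-coupled transporter that brings creatine into cells, and the cytosolic brain-type creatine kinase (Ckb) passes phosphate between ATP and creatine. The proximal tubule is also the main site of myo-inositol breakdown. Myo-inositol oxygenase (Miox) opens the inositol ring to glucuronate, and the aldehyde reductase Akr1a1 reduces glucuronate to gulonate, from which carbon passes on to xylulose and, in mice, to ascorbate.

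The promoters of Gatm and Miox are shown because these genes had the earliest and the latest large difference of the 6. The 250 bases before each RefSeq start site are given for GRCm38.p6, read 5′ to 3′ on the gene's own strand. Gatm lies at chr2:122611278-122611527 on the minus strand and Miox at chr15:89334223-89334472 on the plus strand. Capitals mark matches on either strand to 4 short letter strings: AGGTCA, which many nuclear receptors recognise; GTTAAT, the core of the HNF1 element; TGACNNNGC, the core of the antioxidant response element; and TATAAA.
Gatm: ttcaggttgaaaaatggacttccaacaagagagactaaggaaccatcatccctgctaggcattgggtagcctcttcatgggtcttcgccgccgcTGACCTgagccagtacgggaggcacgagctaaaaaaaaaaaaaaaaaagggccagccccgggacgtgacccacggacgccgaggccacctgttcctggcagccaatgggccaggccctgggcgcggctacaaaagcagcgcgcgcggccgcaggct
Miox: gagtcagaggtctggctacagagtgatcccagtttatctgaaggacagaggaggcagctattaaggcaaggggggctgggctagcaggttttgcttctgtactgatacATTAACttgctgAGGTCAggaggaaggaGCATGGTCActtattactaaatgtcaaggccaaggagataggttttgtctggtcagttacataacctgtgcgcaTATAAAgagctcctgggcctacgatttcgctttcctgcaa
The capitals in Gatm are AGGTCA read on the opposite strand, 156 to 151 bases before the start site. In Miox they are, in order, GTTAAT on the opposite strand at 142 to 137 bases, AGGTCA at 130 to 125, TGACNNNGC on the opposite strand at 114 to 106 and TATAAA at 40 to 35 bases before the start site, with no overlap between them. Over 32536 promoter windows of the same length, 14% held AGGTCA, 6.47% GTTAAT, 10.2% TGACNNNGC and 12.3% TATAAA, so each string is common by itself. Another string, TGGAAA, the core of the element bound by the osmotic stress factor NFAT5, occurred in 18.6% of the windows. None of the 5 windows of these genes that RefSeq gave here held it, and nothing is read from so few windows. Gamt and Akr1a1 held none of the strings, Ckb held TATAAA at 28 to 23 bases, and Slc6a8 is named only. The measured Miox row starts at position 89334305, inside its window, so the marked Miox strings lie within that row. The measured Gatm row reaches to position 122611303 in its window, short of the marked string.

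The label of the cells was set against marker genes of the tubule and of other cell types. The deposited FPKM summed to between 314173 and 375186 in the later libraries and to 448667 and 452114 in the 0 h libraries. Of 12 markers of the S1 and S2 segments, 10 had a row, and their summed FPKM was 4389 to 4752 at 0 h, 1908 to 2216 after 24 h, 1320 to 1395 after 48 h and 860 to 909 after 72 h. Of the 10, 8, 9 and 9 fell at 24, 48 and 72 h and 1 rose, Slc34a3. The Slc34a3 row overlaps other coding genes, and so do the rows of Slc22a6, Slc6a19, Slc34a1, Slc5a12 and Slc5a2, which fell. The 7 S3 markers with a row summed to 185 to 187 at 72 h and 1491 to 1592 at 0 h, and 7 of 7 fell at each time. Markers of other nephron segments were measured as well. The 6 of the thick ascending limb summed to 222 to 223 at 72 h and 593 in both 0 h libraries. The 8 of the distal convoluted and connecting tubule summed to 86.5 to 96.2 at 72 h and 562 to 576 at 0 h. Intercalated cell markers summed to 45.8 to 46.4 at 72 h and 75.9 to 77.6 at 0 h. Sums were higher at 72 h for 4 thin limb markers, at 136 to 141.5 against 50.7 to 56.8 at 0 h. The 8 markers of collecting duct principal cells summed to 222 to 238 at 72 h and 140 to 158 at 0 h, with 2 called higher and 3 lower. Neutrophil markers summed to 75.3 to 77.9 at 72 h and 1.08 to 1.32 at 0 h, with Ngp listed at 0 in at least 1 library. Macrophage markers summed to 136 to 139 at 72 h and 34.9 to 41.7 at 0 h, and those of fibroblasts, mesangium and smooth muscle to 198 to 202 at 72 h and 43.5 to 46.0 at 0 h. Endothelial markers summed to 156 to 158 at 72 h and 79.1 to 83.6 at 0 h. Podocyte markers summed to 80.3 to 81.5 at 72 h and 51.3 to 56.1 at 0 h. Red cell markers summed to 4.91 to 5.43 at 72 h and 380 to 388 at 0 h. Markers of tubular injury summed to 3884 to 3979 at 72 h and 383 to 389 at 0 h. In bulk RNA, fewer tubule cells and less RNA per cell cannot be told apart, and the part of these shifts in the values below was not tested.

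Among the 6 genes, Gatm was the one that was far lower already at 24 h. Its row, ENSMUSG00000027199, covers chr2:122594467-122611303 on the minus strand. Gatm had 324 and 323 FPKM at 0 h, 44.4 and 44.2 after 24 h, 21.8 and 25.7 after 48 h and 11.2 and 13.3 after 72 h. Both libraries of each later time lay below both libraries of the time before, with no overlap. How many of all rows were apart in this way was not counted, here or for the genes below. The mean was 323 ± 1.14 FPKM at 0 h and 44.3 ± 0.146 after 24 h, then 23.8 ± 2.70 after 48 h and 12.3 ± 1.51 after 72 h (SD, n = 2 each), which is 13.7%, 7.34% and 3.80% of the 0 h mean. By level, Gatm took ranks 4038 and 3557 among all rows at 72 h, against ranks 182 and 178 at 0 h. Its differences of log2(FPKM + 1) against 0 h were -2.84, -3.72 and -4.61 at 24, 48 and 72 h (SE 0.0963), places 5, 6 and 5 from the lowest of 10757 rows tested.

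Gamt, the enzyme that completes creatine, was a minor transcript here. Its row, ENSMUSG00000020150, covers chr10:80257636-80260995 on the minus strand. Gamt had 9.09 and 7.90 FPKM at 0 h, 4.73 and 4.66 after 24 h, 3.10 and 2.92 after 48 h and 1.57 and 2.06 after 72 h. The libraries of successive times did not overlap, and the means, 8.49 ± 0.847, 4.69 ± 0.0459, 3.01 ± 0.128 and 1.82 ± 0.346 FPKM (SD, n = 2 each), stepped down to 21.4% of the 0 h mean at 72 h. The differences of log2(FPKM + 1) against 0 h were -0.73, -1.24 and -1.75 (SE 0.112), and the scale understates changes at such low levels. The Gamt row lies inside the plus-strand row of Ndufs7, a subunit of respiratory complex I, which had 860 and 899 FPKM at 72 h, against 665 and 643 at 0 h. How strand was handled in counting is not stated, so reads of the 2 rows cannot be told apart.

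The measured levels of Gatm and Gamt, which act in sequence, therefore did not keep their proportion. The ratio of Gatm to Gamt FPKM was 35.7 and 40.9 at 0 h, 9.39 and 9.48 after 24 h, 7.04 and 8.78 after 48 h and 7.13 and 6.47 after 72 h. Both 0 h libraries stood well above the later 6, which lay within a narrow band. The low Gamt values may hold reads of Ndufs7, as said above, and the part of this in the ratio was not tested.

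Slc6a8, the creatine transporter, was lower by 24 h, with smaller steps after that. Its row, ENSMUSG00000019558, covers chrX:73672921-73683548 on the plus strand. Slc6a8 had 59.3 and 64.6 FPKM at 0 h, 34.4 and 30.4 after 24 h, 26.8 and 27.3 after 48 h and 25.8 and 23.9 after 72 h. All later libraries lay below both 0 h libraries, and both 24 h libraries lay above all 4 libraries of 48 and 72 h. The means were 52.2%, 43.7% and 40.1% of the 0 h mean of 62.0 ± 3.79 FPKM (SD, n = 2), and the differences of log2(FPKM + 1) were -0.92, -1.16 and -1.28 (SE 0.0824). After quantile normalisation they were -0.61, -0.74 and -1.02. The ratio of Gatm to Slc6a8 crossed 1: it was 5.47 and 4.99 at 0 h, 1.29 and 1.45 after 24 h, 0.816 and 0.939 after 48 h and 0.435 and 0.558 after 72 h. The transporter transcript was thus the more abundant of the pair in all 4 libraries of 48 and 72 h.

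Ckb, the creatine kinase, had the least repeatable values of the 6. Its row, ENSMUSG00000001270, covers chr12:111669315-111672657 on the minus strand. Ckb had 16.5 and 30.9 FPKM at 0 h, 20.6 and 10.0 after 24 h, 6.59 and 8.21 after 48 h and 7.57 and 5.92 after 72 h. The 24 h libraries overlapped those of 0 h, whereas all 4 libraries of 48 and 72 h lay below both 0 h libraries. The means were 23.7 ± 10.2 FPKM at 0 h, 15.3 ± 7.50 after 24 h, 7.4 ± 1.15 after 48 h and 6.75 ± 1.17 after 72 h (SD, n = 2 each). The difference of log2(FPKM + 1) at 24 h against 0 h, -0.61 with an SE of 0.443, depended on single libraries: it was -1.10 without 24 h library a and -0.13 without 24 h library b. At 48 and 72 h the differences were -1.50 and -1.61 with the same SE. The Ckb row lies within a long plus-strand row assigned to Pacs2, which stayed between 9.57 and 11.9 FPKM in all 8 libraries.

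**Figure D1:**
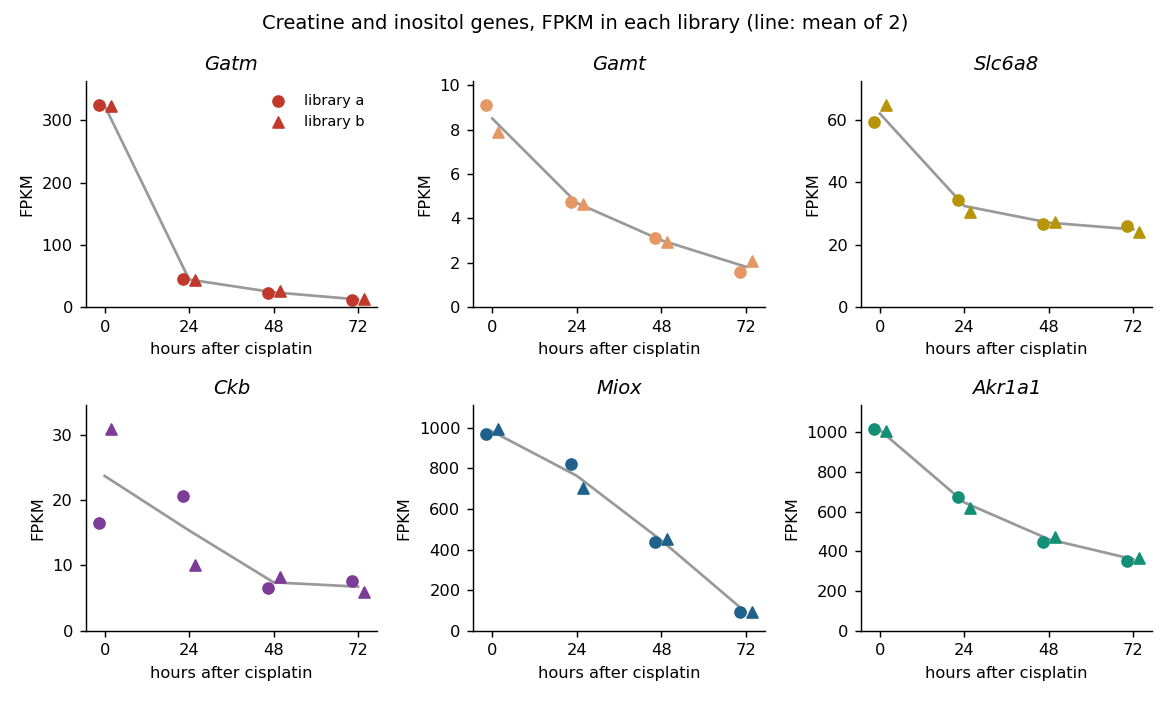
FPKM of each gene (vertical axes, linear, each from 0) against hours after cisplatin. Circles are libraries a, triangles libraries b and lines join the means of 2; Gatm drops mainly before 24 h, Miox drops at every step to its lowest values at 72 h, and the 2 Ckb libraries lie far apart at 0 and 24 h.

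Miox, which opens the inositol ring, was among the most abundant transcripts and had the latest large difference. Its row, ENSMUSG00000022613, covers chr15:89334305-89337015 on the plus strand. Miox had 969 and 994 FPKM at 0 h, 823 and 703 after 24 h, 439 and 452 after 48 h and 93.3 and 90.6 after 72 h. No pair of libraries overlapped that of another time. The means were 981 ± 17.4, 763 ± 84.5, 446 ± 8.94 and 91.9 ± 1.94 FPKM (SD, n = 2 each), so that 77.8%, 45.4% and 9.37% of the 0 h mean was measured at 24, 48 and 72 h. The 72 h mean was 20.6% of the 48 h mean. Among all rows, Miox ranked 453 and 486 at 72 h, against 40 and 41 at 0 h. The differences of log2(FPKM + 1) against 0 h were -0.37, -1.14 and -3.40 (SE 0.0783), which put Miox in places 3828, 1261 and 29 from the lowest of 10757 rows. For 72 h against 48 h alone, Miox was in place 9 from the lowest, with a difference of -2.26. The small difference at 24 h depended on the scaling of the libraries: it was -0.25 when every library was given an equal median and -0.0054 after quantile normalisation, which also gave -0.56 at 48 h and -2.90 at 72 h.

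Akr1a1, the reductase that takes glucuronate onward, was close to Miox in level until 48 h but not at 72 h. Its row, ENSMUSG00000028692, covers chr4:116636288-116659717 on the minus strand. Akr1a1 had 1017 and 1005 FPKM at 0 h, 673 and 620 after 24 h, 448 and 474 after 48 h and 353 and 368 after 72 h. The 4 pairs of libraries did not overlap, and the steps became smaller with time. The means at 24, 48 and 72 h were 64.0%, 45.6% and 35.7% of the 0 h mean of 1011 ± 8.74 FPKM (SD, n = 2), and the differences of log2(FPKM + 1) were -0.65, -1.13 and -1.49 (SE 0.0659). These differences were -0.33, -0.52 and -1.04 after quantile normalisation. The Akr1a1 row overlaps the plus-strand row of the peroxiredoxin Prdx1, which had 405 and 448 FPKM at 0 h, 517 and 519 after 24 h, 381 and 393 after 48 h and 357 and 331 after 72 h.

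The 2 enzymes of inositol breakdown kept a ratio near 1 until 48 h. Miox over Akr1a1 was 0.953 and 0.989 at 0 h, 1.22 and 1.13 after 24 h, 0.980 and 0.954 after 48 h and 0.265 and 0.246 after 72 h. The ratio of Gatm to Miox was lower at 24 and 48 h and partly higher again at 72 h, being 0.335 and 0.325 at 0 h, 0.0539 and 0.0628 after 24 h, 0.0497 and 0.0568 after 48 h and 0.12 and 0.147 after 72 h.

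By level, the order at 72 h was Akr1a1, Miox, Slc6a8, Gatm, Ckb and Gamt, and at 0 h it was Akr1a1, Miox, Gatm, Slc6a8, Ckb and Gamt. At 48 h the Akr1a1 and Miox libraries overlapped, so these neighbours were not apart. The 6 rows all had values above 0 in every library and all passed the filter on low values.

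Against 0 h, 5 of the 6 rows passed the threshold of an adjusted p under 0.05 in the lower direction at 24 h, all but Ckb, where 40.0% of the 10757 rows tested did so, and 6 of 6 passed at 48 h and at 72 h, where 42.1% and 32.4% of all rows did. None of the 6 was called higher, beside 25.8%, 28.5% and 37.6% of all rows. Since these values chose the genes, nothing is read from these counts. The medians of the 6 differences of log2(FPKM + 1) were -0.69, -1.20 and -1.69 at 24, 48 and 72 h, beside medians over all rows of -0.12, -0.13 and 0.07. Between successive times, 4 of 6 passed as lower for 48 h against 24 h and 4 of 6 for 72 h against 48 h, Slc6a8 and Ckb being the exceptions both times. Of all rows, 17.2% and 11.3% were called lower and 11.2% and 37.2% higher in these steps. The last split depends on scaling: 3999 rows were called higher and 1212 lower with the FPKM as deposited, 2224 and 2580 when every library was given an equal median, and 2426 and 2465 under quantile normalisation. For 48 h against 24 h, 1200 rows were called higher and 1846 lower with the FPKM as deposited, and 1576 and 1562 under quantile normalisation.

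**Figure D2:**
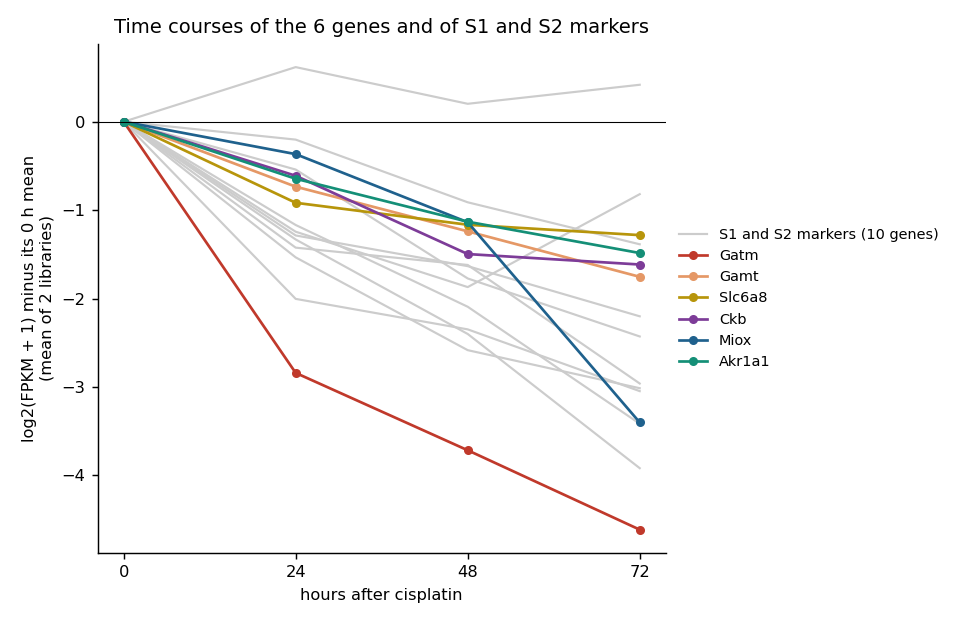
Mean log2(FPKM + 1) of 2 libraries minus the 0 h mean (vertical axis) against hours after cisplatin, for the 6 genes in colour and 10 markers of the S1 and S2 segments in grey. Gatm lies below all 10 markers at 24, 48 and 72 h, and Miox crosses from above most of them to below 8 of 10 after 72 h.

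Set beside the S1 and S2 markers, Gatm stood at the low end and the other genes mostly at the high end. At 24, 48 and 72 h the markers' median differences of log2(FPKM + 1) were -1.27, -1.82 and -2.70 and their lowest were -2.0, -2.58 and -3.92, so that Gatm lay below all 10 of 10 markers each time. Miox lay below 2, 2 and 8 of the 10. Gamt, Slc6a8, Ckb and Akr1a1 lay below 2 or 3 of them at every time. The comparison is a description, since the 6 genes were chosen on the same contrasts.

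Expressed per 1000 FPKM of these markers, Gatm was 73.9 and 67.9 at 0 h, 20.0 and 23.1 after 24 h, 16.5 and 18.4 after 48 h and 13.1 and 14.7 after 72 h, with all later libraries below both 0 h libraries. Miox per 1000 marker FPKM was 221 and 209 at 0 h, 371 and 369 after 24 h, 333 and 324 after 48 h and 109 and 99.7 after 72 h. Relative to the summed S1 and S2 markers, Miox was thus above its 0 h level at 24 and 48 h and below it at 72 h. Gamt stayed between 1.66 and 2.44 in all 8 libraries, with the groups overlapping. Akr1a1 was 410 and 405 at 72 h and 232 and 211 at 0 h, and Slc6a8 was 30.0 and 26.3 at 72 h and 13.5 and 13.6 at 0 h, both higher per marker FPKM at the later time. Ckb ranged between 3.76 and 9.31 with overlapping groups. A few genes weigh heavily in this base: at 0 h, Lrp2 had 1180 and 1430 FPKM and Slc34a1 1396 and 1483. The base also holds Slc34a3, with 172 and 181 FPKM at 72 h and 130 and 133.5 at 0 h. The Slc34a3 row overlaps other coding genes, as do those of Slc34a1, Slc22a6, Slc6a19, Slc5a12 and Slc5a2. The 7 S3 markers, taken as the base instead, gave another picture for Gamt. Per 1000 S3 marker FPKM, Gamt was between 8.13 and 11.1 in the later 6 libraries, all above the 6.10 and 4.96 at 0 h. Gatm on that base was 217 and 203 at 0 h, 76.3 and 78.9 after 24 h, 67.0 and 79.4 after 48 h and 59.9 and 72.1 after 72 h, below 0 h throughout but with overlap among the later times.

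**Figure D3:**
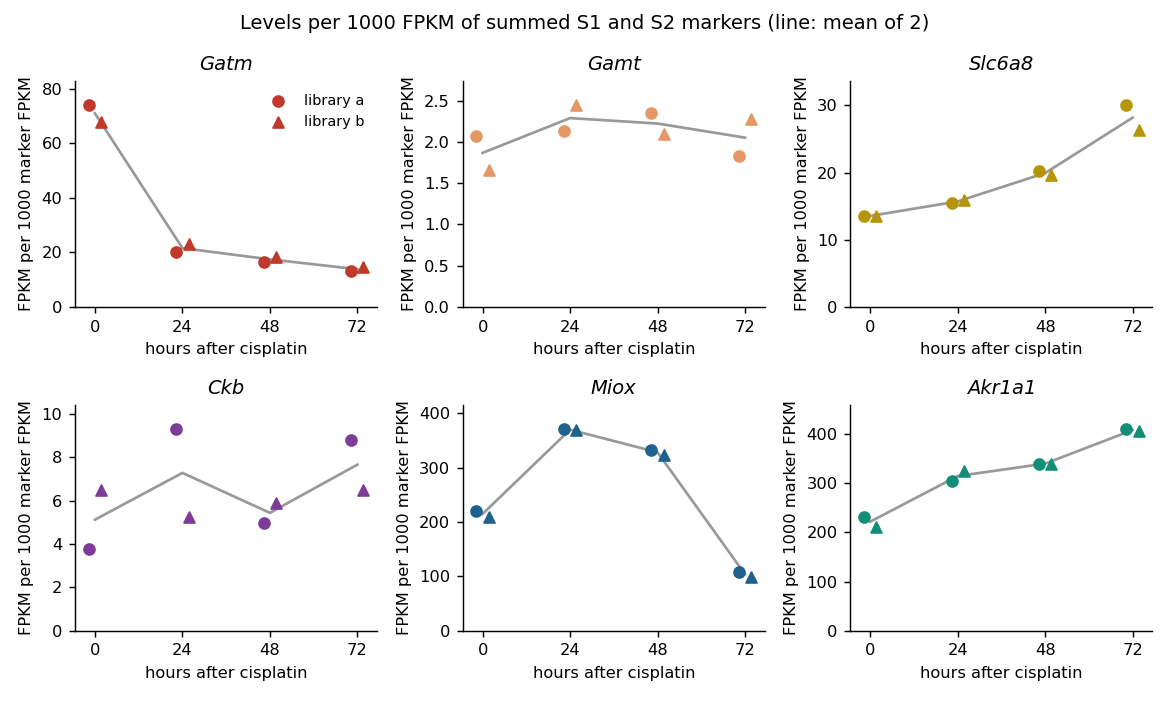
FPKM of each gene per 1000 FPKM of the 10 summed S1 and S2 markers (vertical axes, linear, each from 0) against hours after cisplatin; circles are libraries a, triangles libraries b and lines join the means of 2. Gatm is below its 0 h level at every later time, Miox is above its 0 h level at 24 and 48 h and below it at 72 h, and Akr1a1 and Slc6a8 are highest at 72 h.

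The rows whose time course over the 8 libraries was most like that of each gene were found by the Euclidean distance between log2(FPKM + 1) values, each minus its own 0 h mean. This distance depends on the size of a change as well as on its course, and Gatm was among the rows with the largest falls. Gatm had few near rows, with a single row within a distance of 1. That row was G6pc, the glucose-6-phosphatase that ends gluconeogenesis, at a distance of 0.705. G6pc had 234 and 227 FPKM at 0 h, 41.2 and 41.1 after 24 h, 15.1 and 16.6 after 48 h and 10.6 and 10.2 after 72 h. Next came Pzp, a protease-binding protein, at a distance of 1.2, and Inmt, a methyltransferase acting on indole amines, at 1.2. Miox had 6 rows within a distance of 1. The nearest was Acmsd, which diverts tryptophan breakdown from NAD synthesis, at 0.528. Acmsd had 37.3 and 37.7 FPKM at 0 h, 34.3 and 33.5 after 24 h, 19.5 and 17.6 after 48 h and 2.10 and 2.19 after 72 h, lowest at 72 h. Ugt2a3, a glucuronosyltransferase whose row overlaps those of related genes, followed at 0.877, and the lipase Aadac at 0.924.

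**Figure D4:**
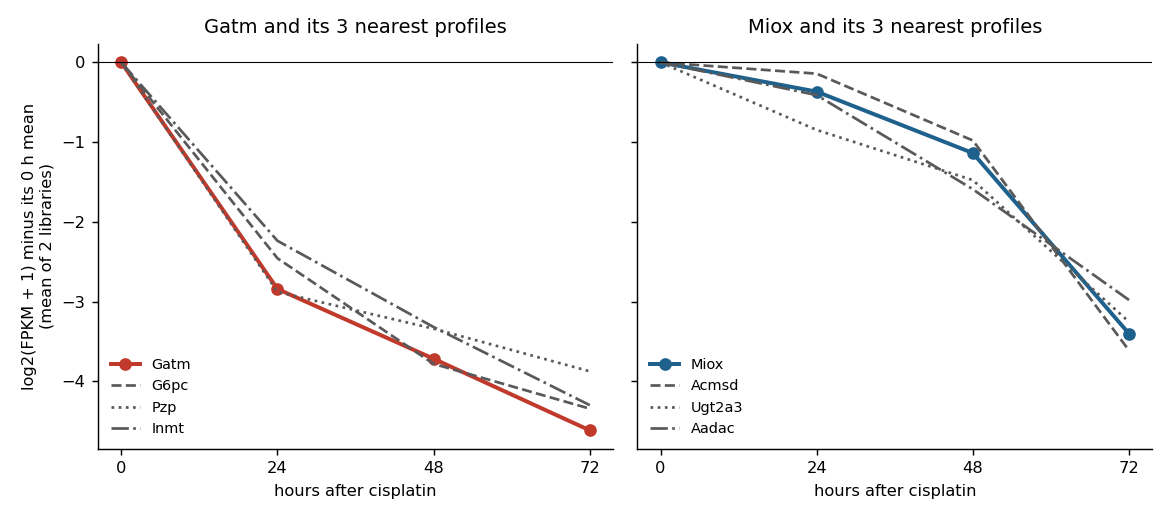
Mean log2(FPKM + 1) of 2 libraries minus the 0 h mean (vertical axis, shared) against hours after cisplatin for Gatm (left) and Miox (right), coloured, with the 3 rows nearest to each by Euclidean distance over 8 libraries in grey. The Gatm panel drops mainly before 24 h. Each line of the Miox panel has its largest step between 48 and 72 h, though Ugt2a3 and Aadac also drop clearly before 48 h.

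The other genes had many near rows or shared the scatter between libraries. Within a distance of 1 lay 425 rows for Gamt, 1007 for Slc6a8 and 676 for Akr1a1. The nearest to Gamt were Nsdhl of sterol synthesis at 0.271, Gcdh of lysine breakdown at 0.273 and Mettl26 at 0.283. Those nearest to Slc6a8 were the peroxisomal transporter Abcd3 at 0.204, the sialidase Neu2 at 0.226 and Rbpms2 at 0.242. Akr1a1 was nearest to Sdhb, a subunit of succinate dehydrogenase, at 0.158, to glutathione synthetase Gss at 0.169 and to Acot4 at 0.172. For Ckb the nearest were the folate transporter Slc46a1 at 0.651, Mvd of the mevalonate pathway at 0.828 and Mccc1 of leucine breakdown at 0.837. Slc46a1 had 8.88 and 4.22 FPKM at 24 h and 7.88 and 21.0 at 0 h in libraries a and b, so it shared with Ckb the high 0 h library b and the low 24 h library b. Among the 6 genes themselves, Gamt and Akr1a1 were nearest to each other at 0.481, while Gatm lay between 5.35 and 6.54 from each of the others.

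The genes that supply and use the same metabolites were examined as 6 lists of 93 genes that do not include the 6. Of these, 84 had a row and 77 were tested with limma. Over the 77, 50 fell and 10 rose at 24 h, 53 fell and 11 rose at 48 h, and 51 fell and 20 rose at 72 h, with median differences of log2(FPKM + 1) of -0.49, -0.79 and -0.70 beside -0.12, -0.13 and 0.07 over all rows. The shares of all rows called lower at these times were 40.0%, 42.1% and 32.4%, and those called higher were 25.8%, 28.5% and 37.6%. These shares are the background for the counts of each list below. At all 3 times 43 of 77 were called lower, against 26.3% of all rows, and 9 were called higher, against 20.0%. The S1 and S2 marker sums given above moved the same way as the genes that fell, and their part was not tested. Akr1b3 and Aqp1 were on a marker list as well as on a pathway list.

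Most genes on the list for arginine and glycine supply, which also holds genes that break these amino acids down, fell. Of 19 tested genes, 16, 16 and 14 fell and 1, 1 and 4 rose at 24, 48 and 72 h, with median differences of -0.81, -1.33 and -1.50. Ass1, argininosuccinate synthase, which makes the arginine precursor in the proximal tubule, averaged 1218 ± 20.6 FPKM at 0 h, 408 ± 45.5 after 24 h, 192 ± 1.52 after 48 h and 109 ± 2.81 after 72 h. Its differences of log2(FPKM + 1) were -1.58, -2.66 and -3.46 (limma, adjusted p 6.6e-07, 2.6e-08 and 3.1e-09, n = 2 per group). Arginase 2 (Arg2), the mitochondrial enzyme that splits arginine, moved the other way and averaged 1.78 ± 0.119, 13.3 ± 0.160, 20.7 ± 0.398 and 41.2 ± 0.0037 FPKM at 0, 24, 48 and 72 h. Arg2 rose by 2.36, 2.96 and 3.92 on the log2 scale (limma, adjusted p 8.3e-08, 1.6e-08 and 1.5e-09), and its row overlaps Vti1b, which has its own row. Aldh4a1, of proline breakdown, fell, with log2 differences of -1.62, -2.01 and -2.42 at the 3 times. Agxt2, a mitochondrial aminotransferase that acts on glyoxylate and methylarginines, averaged 56.5 FPKM at 0 h, 42.1 after 24 h, 26.0 after 48 h and 9.94 after 72 h. Its difference of -0.41 after 24 h (limma, adjusted p 0.00043) was no longer called after quantile normalisation, while it fell, with differences of -1.09 and -2.39, at 48 and 72 h.

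Gldc, the decarboxylase of the glycine cleavage system, chosen after its values were seen, was low early and partly higher again later. Gldc averaged 58.1 ± 9.02 FPKM at 0 h, 9.68 ± 0.393 after 24 h, 8.55 ± 0.983 after 48 h and 29.0 ± 0.0642 after 72 h. The differences of log2(FPKM + 1) against 0 h were -2.46, -2.62 and -0.97, and for 72 h against 48 h the difference was 1.65, with limma adjusted p under the threshold in all 4. For Gatm the same difference was -0.90.

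Creatine and adenylate kinases gave 6 tested genes, of which 4 fell at each time and 0, 0 and 2 rose. Slc16a12, a monocarboxylate-family transporter that carries creatine out of cells, averaged 163 ± 7.54 FPKM at 0 h, 54.1 ± 0.807 after 24 h, 34.7 ± 1.32 after 48 h and 44.7 ± 0.0956 after 72 h. Slc16a12 fell, with log2 differences of -1.57, -2.2 and -1.84. Its row also spans Pank1 and interferon-induced Ifit genes, 4 of the spanned genes having no row of their own. The mitochondrial adenylate kinases Ak4 and Ak3 fell, to 17.1 and 33.6 FPKM at 72 h against 96.5 and 77 at 0 h. Ckmt1, the mitochondrial creatine kinase, averaged 20.2 ± 0.304 FPKM at 0 h, 15.5 ± 0.646 after 24 h, 18.8 ± 0.728 after 48 h and 30.8 ± 0.719 after 72 h. It fell by 0.36 on the log2 scale at 24 h and rose by 0.59 after 72 h (limma, adjusted p 0.0016 and 6.5e-05), and the -0.10 after 48 h did not pass (adjusted p 0.25). At 72 h the cytosolic Ckb was thus below its 0 h level and Ckmt1 above it, and the difference between these 2 was not tested.

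Of 18 tested genes of methyl donor supply and use, 13, 14 and 15 fell and 1, 1 and 2 rose at 24, 48 and 72 h, with medians of -0.54, -1.06 and -1.47. Sardh, sarcosine dehydrogenase, averaged 189 ± 15.1 FPKM at 0 h, 54.6 ± 8.45 after 24 h, 35.9 ± 2.68 after 48 h and 32.7 ± 1.08 after 72 h. Chdh, which starts choline oxidation to betaine, fell, with log2 differences of -1.24, -1.71 and -1.64, as did Dmgdh, which acts on dimethylglycine, with -0.81, -1.74 and -2.37, and Bhmt2, a methyltransferase that remakes methionine, with -0.70, -1.46 and -2.08. Mat2a, which makes S-adenosylmethionine in most tissues, is listed at 0 in every library, which can be a failed estimate, and was not tested.

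The myo-inositol list, for synthesis, uptake and phosphoinositide entry, held calls in both directions. Of 12 tested genes, 5, 6 and 6 fell and 1, 2 and 4 rose at 24, 48 and 72 h, beside 40.0%, 42.1% and 32.4% of all rows called lower and 25.8%, 28.5% and 37.6% called higher. The list's medians were -0.29, -0.26 and -0.12. The apical inositol transporter Slc5a11 averaged 31.1 ± 0.742 FPKM at 0 h, 11.5 ± 3.31 after 24 h, 4.75 ± 0.119 after 48 h and 3.02 ± 0.0827 after 72 h. Slc5a11 fell, with log2 differences of -1.38, -2.48 and -3.0 (limma, adjusted p 6e-05, 1.2e-06 and 3.2e-07). Of the inositol phosphate kinases, Itpk1 fell, with log2 differences of -1.2, -1.29 and -0.53, while Ip6k2 rose by 0.67, 0.61 and 0.55. Cdipt, which joins inositol to the lipid backbone of phosphatidylinositol, had a difference of -0.16 after 24 h that did not pass (limma, adjusted p 0.11) and fell, with differences of -0.57 and -0.37, at 48 and 72 h.

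Of 12 tested genes of the glucuronate, xylulose and ascorbate pathways, 8 fell and 3 rose at each of the 3 times. The list is not limited to steps after Miox and Akr1a1, since it also holds Ugdh and ascorbate transporters. Sord, sorbitol dehydrogenase, averaged 106 ± 4.12 FPKM at 0 h, 60.6 ± 12.8 after 24 h, 31.8 ± 1.54 after 48 h and 13.0 ± 0.603 after 72 h. Khk, the kinase that phosphorylates fructose, averaged 403 ± 2.63, 246 ± 12.2, 149 ± 5.44 and 68.5 ± 0.187 FPKM at 0, 24, 48 and 72 h. Both fell at every time, with log2 differences of -2.94 and -2.54 at 72 h. The ascorbate transporter Slc23a1 fell, with log2 differences of -0.96, -1.82 and -1.94, and so did Cryl1, which oxidises gulonate, with -0.87, -1.18 and -1.43, although the Cryl1 row also spans 3 genes without a row of their own. Ugdh, which makes UDP-glucuronate and was chosen after its values were seen, averaged 526 ± 9.45 FPKM at 0 h, 1042 ± 85.6 after 24 h, 1020 ± 43.0 after 48 h and 1096 ± 10.3 after 72 h. Ugdh rose by 0.98, 0.95 and 1.06 on the log2 scale, and its row spans 5 genes without a row of their own. The other 2 that rose at every time were Akr1b8 and Gsto1, also named after their values were seen, with log2 differences at 72 h of 1.40 and 1.39. Their rows overlap related genes without a row.

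Of 10 tested osmolyte and NFAT5 genes, 4, 5 and 4 fell and 4, 4 and 5 rose at 24, 48 and 72 h, counts near the shares of all rows given for the myo-inositol list. NFAT5 is the transcription factor that raises osmolyte uptake under high salt, and myo-inositol is among these osmolytes. Nfat5 itself, chosen after its values were seen, averaged 7.73 ± 0.263 FPKM at 0 h, 15.4 ± 0.933 after 24 h, 18.5 ± 0.405 after 48 h and 21.8 ± 1.15 after 72 h and rose by 0.91, 1.16 and 1.39 on the log2 scale. Slc6a13, a GABA and taurine transporter, fell, with log2 differences of -1.18, -1.92 and -2.38. So did Slc6a6, another transporter of this list chosen after its values were seen, with -1.48, -1.59 and -0.83. Slc6a12 of this list was too low to be tested, and Slc5a3 of the myo-inositol list had no row. The activity of NFAT5 was not tested. The amino acid transporter Slc38a2 rose by 0.62, 0.91 and 1.37, and the heat shock gene Hspa1b rose by 3.40, 2.23 and 2.65, its row overlapping Hspa1a, which has no row. Aldh1a1, a retinal dehydrogenase, averaged 14.3 FPKM at 72 h and 1.56 FPKM at 0 h. It rose by 0.97 and 2.58 at 48 and 72 h, and its 24 h difference of 0.41 (limma, adjusted p 0.0092) was lost without 0 h library a or without 24 h library a, with an adjusted p of up to 0.0742 among the alternatives.

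**Figure D5:**
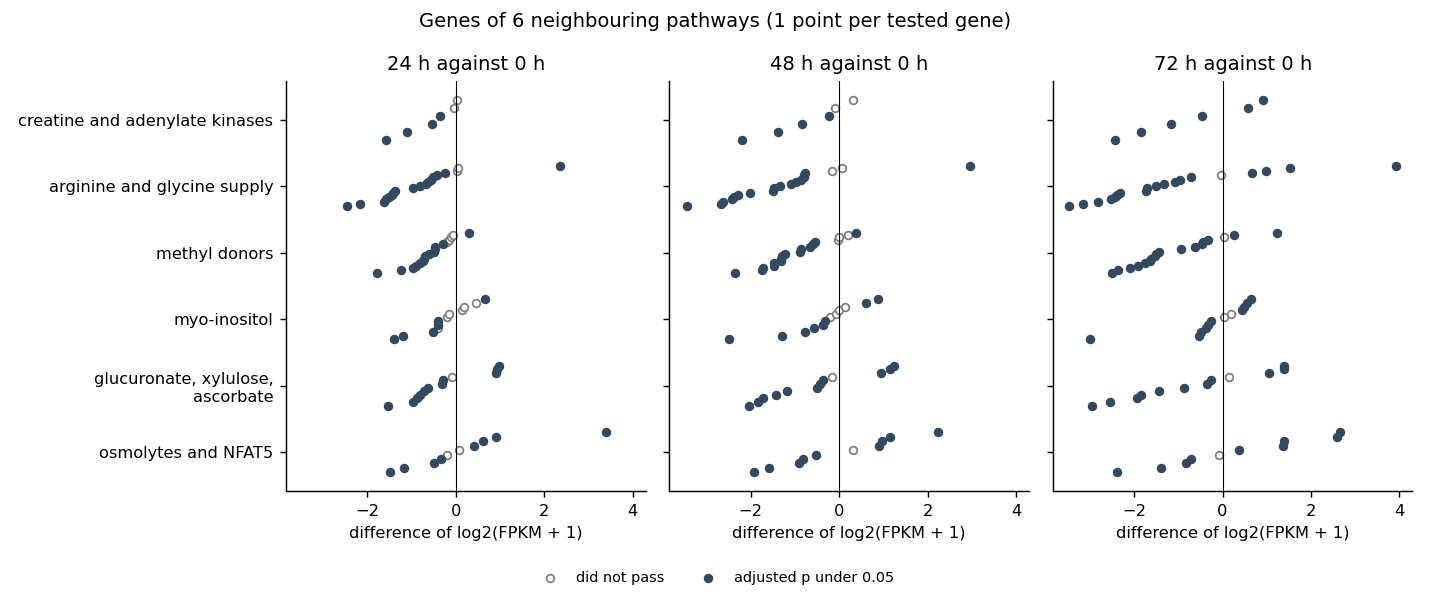
Differences of log2(FPKM + 1) against 0 h (horizontal axes, shared) for the 77 tested genes of 6 lists, 1 point per gene, at 24, 48 and 72 h; filled points have a limma adjusted p under 0.05. Most points of the arginine and glycine list and of the methyl donor list lie left of 0, and the far right point of the arginine and glycine list is Arg2.

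Between successive times, 39 of the 77 fell and 12 rose at 48 h against 24 h, and 22 fell and 21 rose at 72 h against 48 h. Of all rows, 17.2% were called lower and 11.2% higher in the first step, and 11.3% lower and 37.2% higher in the second. The first count of rises rested on single libraries, being 3 without 48 h library a and 6 without 48 h library b. The second split depended on scaling, with 32 lower and 15 higher when every library had the same median and 30 lower and 18 higher after quantile normalisation.

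No circular RNA of the study's separate table of 2163 back-splice positions overlapped the rows of the 6 genes, so none could be compared with them.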

How the data were processed

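Linear RNA was measured in 8 libraries, 2 at each of 0, 24, 48 and 72 h. The gene values are FPKM made by the authors, per the file headers; Bowtie 0.12.2, TopHat2, Cufflinks and mm10 appear, without a role, per the submitters' processing notes. FPKM does not give the depth, so counting error is unknown, and the number of libraries limits the precision. The circRNA table holds whole-number counts deposited by the authors without normalization; it was searched only for overlap with the 6 rows, and 8 further columns of it were not used. Column letters could not be tied to the labels' replicate numbers, so columns were assigned by time.

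Of 21874 rows, 19742 matched a symbol. Rows of at least 1 FPKM in at least 2 libraries, 10757 in all, were tested with limma 3.58.1 in R 4.3.3 (trend, robust) on log2(FPKM + 1), in 1 fit of 8 libraries, 2-sided; p-values were adjusted by Benjamini-Hochberg per contrast, with 0.05 as the threshold. SE values are from that fit. The procedure was tested on simulated data. Alternatives were a pseudocount of 0.1, no filter, the same median in every library, quantile normalisation, only the 2 groups compared, leaving out each library, and, added after the data were seen, only rows that overlap no other coding gene.

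The 6 genes and all lists were chosen with earlier results of these data known. Named genes are the 6, up to 4 tested genes of each list with the smallest p against 0 h, and the 3 rows nearest to each of the 6; others are marked as chosen after their values were seen. Row positions are those of the table, and the rows of Ak3, Ckmt1, Slc23a1, Chdh and Cdipt also overlap another coding gene. Promoter windows come from RefSeq on GRCm38.p6 and matched 5 of the 6.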

Additional observations from a re-analysis of the deposited data

Results flagged for a closer look

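Ckmt1, the mitochondrial creatine kinase, was lower at 24 h and higher at 72 h than at 0 h, with differences of log2(FPKM + 1) of -0.36 and 0.59, and the difference between the 2 times was 0.95 (limma, adjusted p 7.66e-06). Itpkb, an inositol trisphosphate kinase, went the same way, with -0.40 and 0.48 and a difference between the 2 times of 0.88 (limma, adjusted p 4.66e-05). Psat1, of serine synthesis, whose row overlaps Cep78, had differences of -0.63 at 24 h, -0.76 at 48 h and 0.67 at 72 h, and 72 h differed from 24 h by 1.29 (limma, adjusted p 1.17e-05) and from 48 h by 1.43 (adjusted p 1.81e-05). The 3 were picked from the pathway genes by rule. Calls against 0 h had to have opposite signs at 2 times, and the difference between those times had to pass. That these p-values passed thus follows from the choice and is no separate support. In these 3 genes both 72 h libraries lay above both 24 h libraries, and how many of all rows met the rule was not counted. Itpkb and Psat1 were named after their values were seen. Marker sums also differed between these times, in tubule and other lists. Endothelial markers summed to 156 to 158 FPKM at 72 h and 77.3 to 84.0 at 24 h, and macrophage markers to 136 to 139 and 37.6 to 46.1. Tubular injury markers summed to 3884 to 3979 FPKM at 72 h and 1015 to 1032 at 24 h. Sums of S1 and S2 markers were lower, at 860 to 909 FPKM at 72 h and 1908 to 2216 at 24 h. The part of these shifts in the 3 genes was not tested.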

How the results depend on the processing

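No difference of the 6 genes from 0 h reversed under the alternatives run on them. These were a pseudocount of 0.1, the same median in every library, quantile normalisation and leaving out each library. All alternatives were run on the 77 pathway genes together, not on single lists. For 72 h against 48 h the near-even 22 falls and 21 rises became 19 and 20 with no filter, 21 and 22 without 24 h library a and 17 and 19 without 48 h library a. Where only the 48 of 77 pathway genes whose rows overlap no other coding gene were tested, an alternative chosen after seeing the data, 32 fell and 5 rose after 24 h, 33 and 5 after 48 h, 33 and 11 after 72 h, and 23 and 7 for 48 h against 24 h, counts that are smaller by construction. With only the 2 groups in the fit, 7 rose for 48 h against 24 h. With a pseudocount of 0.1, Gamt differed from 0 h by -1.46 after 48 h and -2.17 after 72 h. With the same median in every library, differences at 24 and 48 h were -2.72 and -3.58 for Gatm, -0.61 and -1.10 for Gamt, -0.80 and -1.03 for Slc6a8, -0.25 and -1.0 for Miox, and -0.52 and -0.99 for Akr1a1, which had -1.55 at 72 h. After quantile normalisation, differences at 24, 48 and 72 h were -2.54, -3.30 and -4.42 for Gatm, -0.60, -1.11 and -1.88 for Gamt, -0.61, -0.74 and -1.02 for Slc6a8, -0.0054, -0.56 and -2.90 for Miox, and -0.33, -0.52 and -1.04 for Akr1a1; the cause was not tested. Leaving out each library in turn gave 45 to 52, 50 to 53 and 44 to 51 falls and 9 to 11, 10 to 12 and 16 to 19 rises at 24, 48 and 72 h, 31 to 38 falls and 3 to 11 rises for 48 h against 24 h, and 17 to 23 falls and 16 to 22 rises for 72 h against 48 h. The ranges over left-out libraries at 24, 48 and 72 h were -2.85 to -2.84, -3.83 to -3.60 and -4.73 to -4.50 for Gatm, -0.83 to -0.64, -1.33 to -1.15 and -1.88 to -1.63 for Gamt, -1.0 to -0.83, -1.23 to -1.10 and -1.34 to -1.22 for Slc6a8, -1.10 to -0.13, -1.93 to -1.06 and -2.05 to -1.18 for Ckb, -0.48 to -0.25, -1.16 to -1.12 and -3.42 to -3.38 for Miox, and -0.70 to -0.59, -1.17 to -1.09 and -1.52 to -1.45 for Akr1a1. With 2 libraries per group, leaving out 1 leaves a lone library that is assumed to vary like the other groups. No paired analysis was possible because the columns carry letters where the labels carry replicate numbers. The planned circRNA alternatives, DESeq2, no filter and leaving out each library, were not run because no circRNA overlapped the 6 rows.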
